A study of Mus musculus with 76 samples.

Results

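Embryos whose mothers had been exposed to α-cypermethrin at the dose labelled 0.3 were compared with embryos of vehicle-treated pairs, by RNA sequencing of the dorsal forebrain, from which the cortex forms. The libraries were chosen by their titles: 12 of the 76 libraries of the series are labelled Maternal_0.3Cyp and 12 are labelled Ctrl. α-Cypermethrin is a pyrethroid insecticide. In the Maternal_0.3Cyp group the mother had received α-cypermethrin and the father vehicle, while in the Ctrl group both parents had received vehicle. Treatment ran over 28 days in all, 7 days at first and then 3 cycles of 2 days off and 5 days on, and the mice were paired right after it. All embryos were C57BL/6J mice taken at embryonic day 16. The labels give no unit for the dose and name no litter. If littermates resemble each other, the p-values below are too small, because each embryo is counted as a separate replicate. The exposed group holds 4 libraries of batch 1 and 8 of batch 2, 6 of females and 6 of males, and the Ctrl group holds 6 of batch 1 and 6 of batch 2, 5 of females and 7 of males. What the batch label stands for is not given in the sources used here.

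At this age radial glia, the stem cells of the cortex, line the ventricle and divide. Their daughters, the intermediate progenitors, divide again and give rise to excitatory neurons, which migrate outward and begin to make ion channels, synaptic proteins and axons. Pyrethroids bind voltage-gated sodium channels and keep them open, and the title of the series names autism spectrum disorder and stress vulnerability. The comparison asks which genes of the embryo's forebrain differed after exposure of the mother.

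Library totals were 18.2 to 27.9 M (mega) counts in Maternal_0.3Cyp (median 18.9 M) and 17.9 to 19.9 M counts in Ctrl (median 18.9 M). Levels are given as normalised CPM, counts scaled to a common library size, which compare a gene between libraries and not genes with each other. Labelled sex fitted the counts of 4 Y-linked genes, 1526 to 2364 in males and 0 to 37 in females of the 24 libraries. Markers of dorsal forebrain were present in every library, with 42.9 to 54.0 CPM in the exposed libraries and 28.0 to 61.4 CPM in Ctrl libraries for Pax6, a radial glia factor, and 276 to 437 CPM in the exposed libraries and 269 to 426 CPM in Ctrl libraries for Tbr1, a factor of deep-layer neurons. One Ctrl library stood apart in tissue: the summed level of 20 diencephalon markers was 40.1 to 65.3 CPM (median 49.0) in the exposed libraries, against 258 CPM in Ctrl replicate 3. Ctrl replicates 7, 8 and 9 also lay above the exposed range, at 69.7, 76.5 and 72.5 CPM. Without Ctrl replicate 3, 2306 genes were called in place of 3404. Among the genes named below as risen or fallen, 18 did not pass without it, with adjusted p from 0.0541 to 0.233: Eomes, Trp73, Prox1, Foxb1, Lyz2, C1qb, Laptm5, Abcb1a, Crabp2, Alas2, Gadd45g, Tdg, Gstm1, Ahr, Prdx2, Hspa1a, Hspd1 and Robo1. In bulk tissue, fewer cells of a type and less RNA per cell cannot be told apart, and this holds for every cell-type gene below.

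Of 14339 genes tested, 3404 were called at an adjusted p under 0.05 (23.7%). In Maternal_0.3Cyp 1564 genes (10.9%) were higher and 1840 (12.8%) lower than in Ctrl. The differences were small: the median absolute log2 fold change of the called genes was 0.25, 67 genes rose and 276 fell by at least 0.5, and 3 rose and 19 fell by at least 1. Over all genes tested the median log2 fold change was 0.007. Most tested members of the lists for DNA replication, mitosis and intermediate progenitors were called higher, and most of those for synaptic release, the postsynapse, glutamate and GABA receptors were called lower, with the counts given below. Each list count below is to be read beside the shares of all genes, 10.9% higher and 12.8% lower. The calls depend on what else is fitted: limma called 4964 genes (34.6%), while 0 genes were called with 2 surrogate variables estimated from the data as covariates, 170 with a globin ratio described below, and 2176 without Ctrl replicate 7.

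Among the 15 called genes of lowest p that were higher in Maternal_0.3Cyp, several belong to the copying and parting of chromosomes. Rfc4, a subunit of the clamp loader that places PCNA on DNA, had 17.8 to 24.3 CPM in Maternal_0.3Cyp (median 21.9), against 10.5 to 21.8 CPM in Ctrl (median 14.7). Ctrl replicates 4, 5 and 6 lay inside the exposed range and the other 9 Ctrl libraries below it. Its log2 fold change was 0.51 ± 0.11 (adjusted p = 0.0033). Rpa3, a subunit of the complex that coats single-stranded DNA, rose by 0.47 ± 0.10, the transcription factor E2f5 by 0.35 ± 0.07, and the cell cycle kinase partner Cks2 by 0.63 ± 0.13. Other risers of this group were Dph3, which takes part in making diphthamide on elongation factor 2 (0.23 ± 0.04), and Calu, a calcium-binding protein of the endoplasmic reticulum (0.19 ± 0.03). Mat2a, which makes S-adenosylmethionine, rose by 0.24 ± 0.05, Fadd, the adaptor of death receptors, by 0.37 ± 0.08, and the membrane protein Pdpn by 0.35 ± 0.07. The remaining risers were Pnrc2, Atp6v0e, Dnttip2, Oard1, Neurod4 and Gcg, with log2 fold changes of 0.24 for Dnttip2 to 0.69 for Gcg and 0.69 for Neurod4.

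The 15 called genes of lowest p that were lower were led by Bhlhe40, a transcriptional repressor induced by activity and by the clock. Bhlhe40 had 7.04 to 10.2 CPM in Maternal_0.3Cyp (median 9.07), against 8.97 to 17.8 CPM in Ctrl (median 11.8), a log2 fold change of -0.50 ± 0.09 (adjusted p = 0.00205). Ctrl replicates 1, 5 and 6 lay inside the exposed range, the other 9 Ctrl libraries lay above it, and all 12 exposed libraries lay below the Ctrl mean. Scmh1, a Polycomb group gene, fell (-0.23 ± 0.04). Aacs, which turns ketone bodies into precursors of lipids, fell to 84.7 ± 7.08 CPM in Maternal_0.3Cyp, against 106 ± 9.56 CPM in Ctrl (SD, n = 12 each; log2 fold change -0.32 ± 0.06). Pde4a, a phosphodiesterase that breaks down cAMP, showed -0.33 ± 0.06, Cers1, the neuronal ceramide synthase, -0.29 ± 0.06, and the transcription factor Klf5 -0.62 ± 0.12. Trim9, a ubiquitin ligase of neurons, and Camsap3, which binds the minus ends of microtubules, fell (-0.39 ± 0.08 and -0.27 ± 0.05). Slc44a5, Arhgap23, Gal3st3, Ajm1, Rusc1 and Lmtk3 fell as well, with log2 fold changes from -0.51 for Ajm1 to -0.25 for Rusc1. Of these 15 fallers, 13 lay below the Ctrl mean in all 12 exposed libraries.

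**Figure D1:**
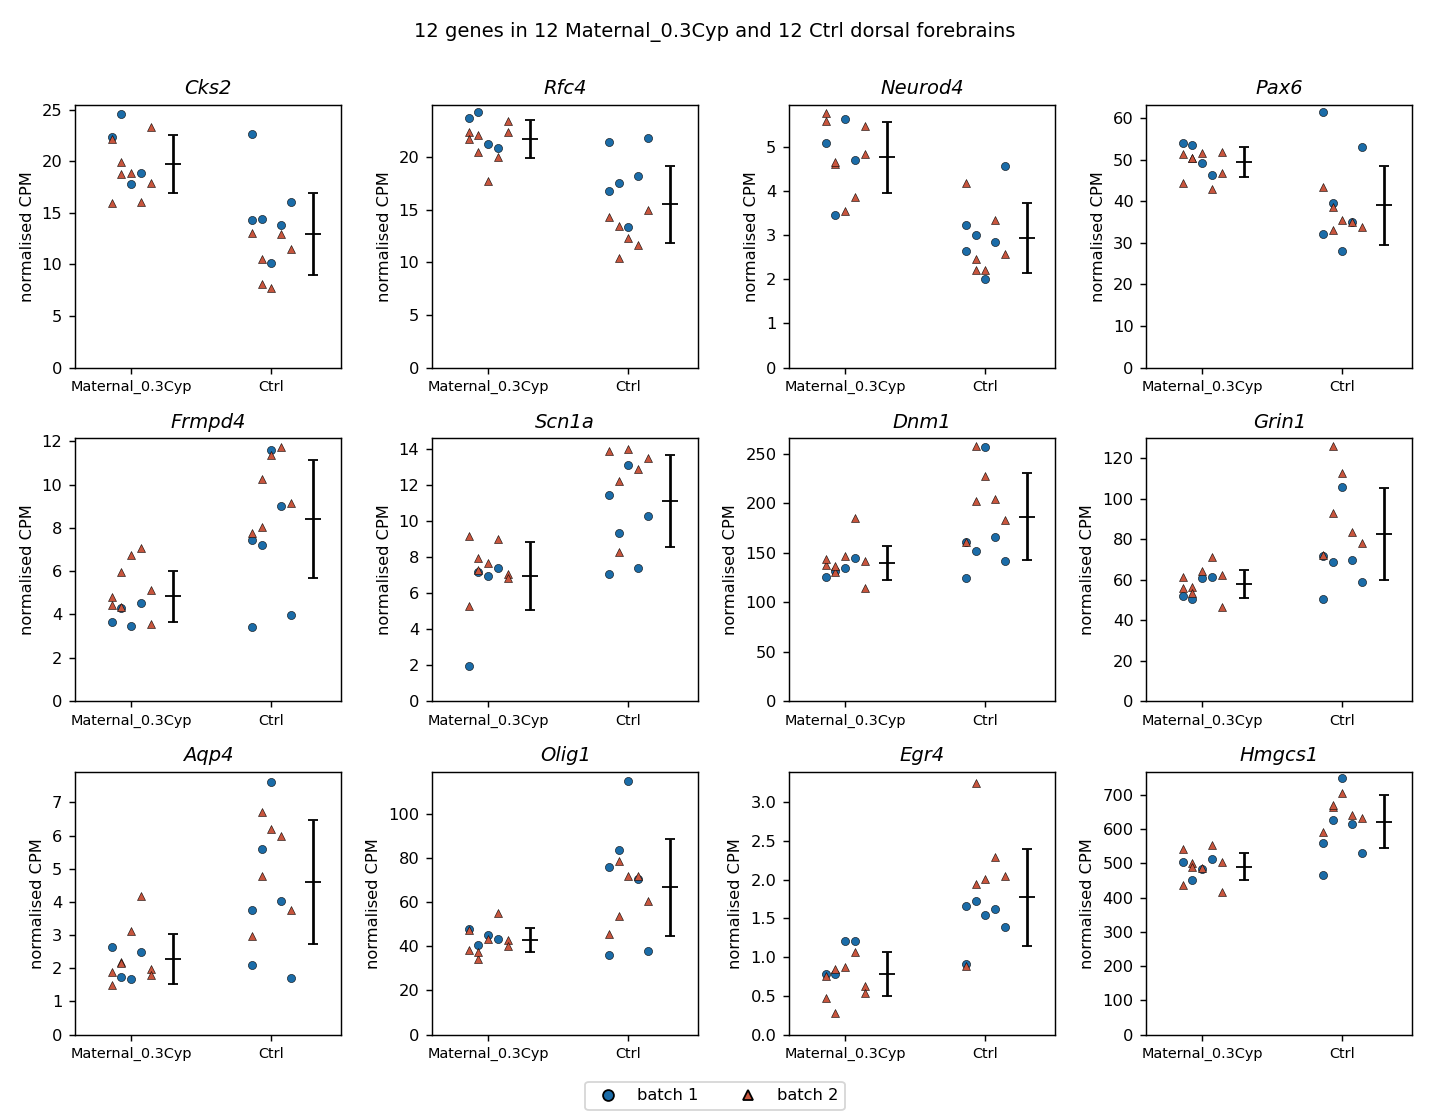
Normalised CPM of 12 genes in each library, with Maternal_0.3Cyp on the left and Ctrl on the right of every panel; circles are batch 1, triangles batch 2, and the bar beside each group is the mean with its SD (n = 12 each). Cks2, Rfc4, Neurod4 and Pax6 lie higher in the exposed libraries and the other 8 genes lie lower, while some Ctrl libraries overlap the exposed range in every panel.

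Most genes of DNA replication rose. Of 56 members tested, 44 were called higher and 0 lower, with a median log2 fold change of 0.32. Dscc1, which takes part in sister-chromatid cohesion, had 2.58 to 4.66 CPM in Maternal_0.3Cyp (median 3.33), against 1.29 to 3.06 CPM in Ctrl (median 2.14). Ctrl replicates 2, 5 and 6 lay inside the exposed range and the other 9 Ctrl libraries below it, at a log2 fold change of 0.68 ± 0.16 (adjusted p = 0.00456). Prim1, the primase subunit that starts new strands, rose by 0.26 ± 0.06. Mcm2, a subunit of the replicative helicase, did not pass the test, with 0.31 ± 0.13 (adjusted p = 0.0619). Histone genes followed in part: 11 of 27 rose and 0 fell (median 0.27), and those with the lowest p were variant or replication-independent histones, H2afz (0.40 ± 0.10), H2afv (0.41 ± 0.11) and H3f3a (0.23 ± 0.06). The linker histone Hist1h1c had -0.02 ± 0.12 (adjusted p = 0.927).

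Mitosis showed the same pattern, with 51 of 67 members higher and 0 lower and a median of 0.41. Cks2 had 15.9 to 24.6 CPM in Maternal_0.3Cyp (median 18.9), against 7.75 to 22.7 CPM in Ctrl (median 13). All 12 exposed libraries lay above the Ctrl mean, and only Ctrl replicates 5 and 6 of batch 1 reached the exposed range. The log2 fold change of Cks2 was 0.63 ± 0.13 (adjusted p = 0.0033), and between 0.57 and 0.71 when any 1 of the 24 libraries was left out. Mad2l1, which holds back anaphase until chromosomes are attached, rose by 0.43 ± 0.09, and the kinetochore proteins Cenpn and Spc24 rose by 0.54 ± 0.12 and 0.51 ± 0.12. Mki67, the marker of cycling cells, had 0.21 ± 0.14 and did not pass (adjusted p = 0.278). Left-out libraries moved the count of mitosis genes called between 39 (without Ctrl replicate 3) and 59 (without Ctrl replicate 5), and the replication count between 33 and 50.

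Promoter sequences of 5 genes are shown because many members of these lists moved together, and these 5 were picked for holding some of the letters searched. NF-Y binds the CCAAT box, complexes of the MuvB core bind the cell cycle homology region TTTGAA, and E2F factors bind sites such as TTCCCGC. RefSeq windows of GRCm38.p6, from 250 bases before to 50 after a gene's start, were found for 57 of the 67 mitosis genes and 43 of the 56 replication genes, and 1 window was taken per gene. TTTGAA or its reverse complement was present in 39 of 57 mitosis windows (68.4%), in 4 of 43 replication windows (9.3%) and in 11.4% of all 11163 windows of tested genes. CCAAT, read on both strands, was in 73.7% of mitosis windows and 60.5% of replication windows, against 38.6% of all windows. TTCCCGC, on both strands, was in 39.5% of replication windows, against 8.35% of all. These are matches of letters and say nothing of binding in these embryos. The windows of Mad2l1 (CCAAT and TTTGAA), Rpa3 (TTCCCGC) and Dhcr7 (CCAAT), which were read for the same letters, held 0 matches, which says only that these letters are not in these windows. The window of Cks2 holds CCAAT in both directions but TTTGAA in neither, so all its 4 matches are CCAAT. That of Cenpn holds both CCAAT and TTTGAA, each as the reverse complement. Cks2 (chr13:51644982-51645281, plus strand) and Cenpn (chr8:116921490-116921789, plus strand) are given with CCAAT and TTTGAA in either direction in capitals, Rfc4 (chr16:23127681-23127980, minus strand) and Prim1 (chr10:128014965-128015264, plus strand) with TTCCCGC in either direction in capitals, and Hmgcs1 (chr13:119690101-119690400, plus strand), a gene of the cholesterol list described below, with CCAAT in either direction in capitals, each 5′ to 3′ along the gene.
Cks2: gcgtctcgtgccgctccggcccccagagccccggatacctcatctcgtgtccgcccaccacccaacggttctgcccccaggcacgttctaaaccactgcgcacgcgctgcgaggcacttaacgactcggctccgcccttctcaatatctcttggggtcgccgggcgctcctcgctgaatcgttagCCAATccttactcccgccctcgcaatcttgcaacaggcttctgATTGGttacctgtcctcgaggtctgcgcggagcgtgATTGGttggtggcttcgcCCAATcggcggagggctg
Cenpn: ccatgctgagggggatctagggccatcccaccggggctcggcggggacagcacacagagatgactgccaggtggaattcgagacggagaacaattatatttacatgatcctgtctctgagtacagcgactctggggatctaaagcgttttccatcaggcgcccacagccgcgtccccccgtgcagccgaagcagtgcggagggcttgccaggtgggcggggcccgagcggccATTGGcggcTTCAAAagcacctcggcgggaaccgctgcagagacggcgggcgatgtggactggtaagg
Rfc4: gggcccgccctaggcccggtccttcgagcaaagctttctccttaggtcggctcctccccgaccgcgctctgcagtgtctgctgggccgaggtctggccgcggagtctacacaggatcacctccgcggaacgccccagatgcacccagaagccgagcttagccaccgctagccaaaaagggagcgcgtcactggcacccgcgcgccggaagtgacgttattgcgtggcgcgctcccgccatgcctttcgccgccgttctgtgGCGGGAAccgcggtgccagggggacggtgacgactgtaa
Prim1: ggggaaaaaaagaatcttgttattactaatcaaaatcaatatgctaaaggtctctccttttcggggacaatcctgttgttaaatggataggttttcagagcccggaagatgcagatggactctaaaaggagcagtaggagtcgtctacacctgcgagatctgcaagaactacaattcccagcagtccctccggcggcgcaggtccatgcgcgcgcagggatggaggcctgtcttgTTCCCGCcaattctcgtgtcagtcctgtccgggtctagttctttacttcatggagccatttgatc
Hmgcs1: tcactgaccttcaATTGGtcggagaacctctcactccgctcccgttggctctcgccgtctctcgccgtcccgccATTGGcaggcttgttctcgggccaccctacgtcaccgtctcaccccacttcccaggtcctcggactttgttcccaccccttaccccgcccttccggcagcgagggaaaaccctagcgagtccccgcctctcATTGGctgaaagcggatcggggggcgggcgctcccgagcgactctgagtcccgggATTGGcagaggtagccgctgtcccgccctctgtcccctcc

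Intermediate progenitor and proneural genes rose in 13 of 18 cases and fell in 2, with a median log2 fold change of 0.37. Eomes, the transcription factor that marks intermediate progenitors, had 114 to 165 CPM in Maternal_0.3Cyp (median 138), against 49.8 to 174 CPM in Ctrl (median 100.3). Ctrl replicates 5 and 11 lay inside the exposed range, replicate 6 above it and the other 9 below it, at 0.45 ± 0.15 (adjusted p = 0.0223). Neurod4, a proneural factor, had 3.46 to 5.76 CPM in Maternal_0.3Cyp (median 4.77), against 2.01 to 4.58 CPM in Ctrl (median 2.75). Only Ctrl replicates 5 and 11 reached the exposed range, and the log2 fold change was 0.69 ± 0.15 (adjusted p = 0.0033), between 0.65 and 0.77 with any 1 library left out. Mfng, which adds sugars to Notch receptors, rose by 0.45 ± 0.13, the somatostatin receptor Sstr2 by 0.37 ± 0.11, and Rrm2, which supplies deoxynucleotides, by 0.37 ± 0.11. The count of 15 called members dropped to 5 when Ctrl replicate 7 was left out, to 6 for Ctrl replicate 3, to 7 for exposed replicate 5 and to 9 for Ctrl replicate 8 or exposed replicate 2, while the median stayed between 0.32 and 0.42 with any library left out.

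Of 20 radial glia genes, 6 rose and 2 fell, with a median of 0.09, which makes 40% called beside 23.7% of all genes. Pax6 had 42.9 to 54.0 CPM in Maternal_0.3Cyp (median 50.4), against 28.0 to 61.4 CPM in Ctrl (median 35.3). Only Ctrl replicates 5, 6 and 11 reached the exposed range, and Pax6 rose by 0.34 ± 0.10 (adjusted p = 0.0151). Hes1, a target of Notch signalling, rose by 0.43 ± 0.13, the intermediate filament Vim by 0.35 ± 0.10 and the cortical patterning factor Emx2 by 0.35 ± 0.10. Tnc, an extracellular matrix protein made by later radial glia, fell (-0.50 ± 0.15, adjusted p = 0.0131). Of 34 Notch pathway genes, 5 rose and 3 fell (median 0.04), which makes 23.5% called beside 23.7% of all genes. The protease Adam17 rose by 0.17 ± 0.05, the ligand Jag2 fell (-0.30 ± 0.09), and Notch1 itself had 0.03 ± 0.12 (adjusted p = 0.854). This count of 8 lay between 4, without Ctrl replicate 7, and 9, without Ctrl replicate 6, with 1 library left out. Of 21 genes of cortical hem and hippocampus, the dorsal midline signalling region, 3 rose and 1 fell, which makes 19% called beside 23.7% of all genes. Wnt3a, a hem ligand, had 0.793 to 2.18 CPM in Maternal_0.3Cyp (median 1.56), against 0.215 to 1.57 CPM in Ctrl (median 0.738), with 0.91 ± 0.28 (adjusted p = 0.0169), and Dmrt3, a medial cortex factor, rose by 0.70 ± 0.22. The hem count of 4 was 2 without any 1 of Ctrl replicates 3, 7 and 8 or exposed replicate 5, and 7 without Ctrl replicate 6.

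The summed level of the lists showed how the single libraries were placed. For mitosis genes the sum was 2499 to 2879 CPM (median 2725) in Maternal_0.3Cyp, against 1686 to 3184 CPM (median 2017) in Ctrl. Of the 12 Ctrl libraries, 10 lay below the lowest exposed library, 2 lay above the highest, and 0 lay inside the exposed range. The same 10, 2 and 0 held for intermediate progenitor genes, at 1077 to 1295 CPM (median 1236) in the exposed libraries and 767 to 1360 CPM (median 971) in Ctrl. In both lists the 2 libraries above the exposed range were Ctrl replicates 5 and 6, which belong to batch 1. On the presynaptic sum these 2 lay inside the exposed range, and 9 Ctrl libraries lay above it.

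**Figure D2:**
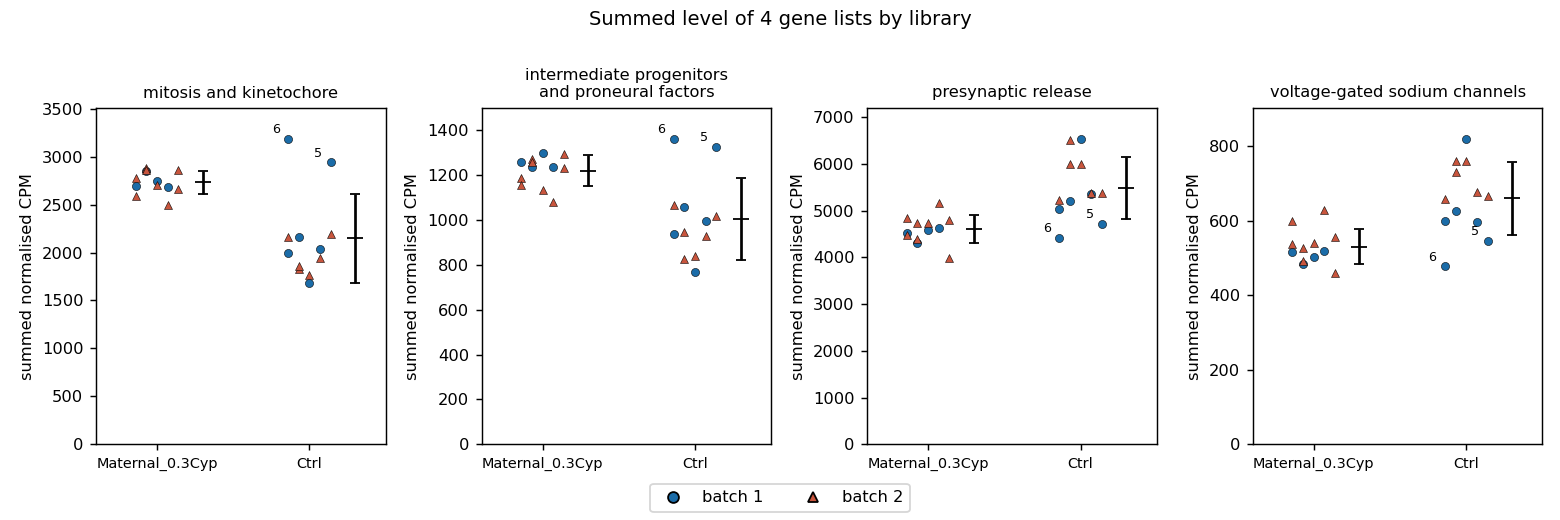
Summed normalised CPM of 4 gene lists in each library, with Maternal_0.3Cyp on the left and Ctrl on the right; circles are batch 1, triangles batch 2, the bar is the mean with its SD (n = 12 each), and Ctrl replicates 5 and 6 are numbered. For the mitosis and progenitor lists 10 Ctrl libraries lie below all exposed libraries and Ctrl replicates 5 and 6 lie above them, and for the presynaptic list 9 Ctrl libraries lie above all exposed libraries.

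Of 19 genes of upper-layer neurons 4 fell and 0 rose, where 12.8% of all genes were lower (median -0.08), a count that was 2 without any 1 of Ctrl replicates 7, 10 and 12 or exposed replicate 2. Of 20 deep-layer genes 6 fell and 0 rose (median -0.13). Tbr1 had -0.0096 ± 0.08 (adjusted p = 0.944). Mef2c, a factor of maturing neurons, had 206 to 290.2 CPM in Maternal_0.3Cyp (median 242), against 221 to 449 CPM in Ctrl (median 347). Ctrl replicates 3, 5 and 6 lay inside the exposed range and the other 9 Ctrl libraries above it, and the log2 fold change was -0.42 ± 0.13 (adjusted p = 0.0169). Rasgrf2, an exchange factor for Ras, fell (-0.88 ± 0.22), the cofactor Ldb2 (-0.33 ± 0.08), and Nr4a2, a subplate and deep-layer factor (-0.40 ± 0.10). Striatal neuron genes fell in 8 of 15 cases (median -0.29), among them Foxp1 (-0.39 ± 0.09) and the dopamine receptor Drd2 (-0.52 ± 0.13). Of 24 interneuron and ventral forebrain genes 3 fell and 0 rose, a share of 12.5% beside the 12.8% of all genes that were lower. They were Gad1, which makes GABA (-0.46 ± 0.14), the vesicular GABA transporter Slc32a1 (-0.29 ± 0.08), and the factor Prox1 (-0.33 ± 0.12). Axon guidance genes fell in 17 of 52 cases and rose in 0 (median -0.16), led by the ephrin receptor Epha6 (-0.65 ± 0.17), with Robo1, a receptor of Slit proteins, at -0.22 ± 0.08.

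Of 15 genes of voltage-gated sodium channels, of proteins that bind them and of the sodium leak channel, 10 fell and 0 rose, with a median of -0.36. The fallers included the channel subunits Scn1a, Scn2a and Scn8a, the leak channel Nalcn, which is a relative and not one of the voltage-gated sodium channels, and the channel-binding protein Fgf14. Scn1a, an α subunit linked to infant epilepsy, had 1.93 to 9.17 CPM in Maternal_0.3Cyp (median 7.23), against 7.09 to 14.0 CPM in Ctrl (median 11.9). The groups overlapped between 7.09 and 9.17 CPM, and all 12 exposed libraries lay below the Ctrl mean, at -0.72 ± 0.19 (adjusted p = 0.00649). The exposed library with the lowest value, replicate 1, had 1.93 CPM. Scn2a, another α subunit, fell to 56.8 ± 6.89 CPM in Maternal_0.3Cyp, against 78.5 ± 17.1 CPM in Ctrl (SD, n = 12 each; -0.49 ± 0.14). Scn8a fell (-0.36 ± 0.09), Nalcn (-0.54 ± 0.14) and Fgf14 (-0.29 ± 0.07). Potassium channel genes fell in 17 of 42 cases (median -0.28) and calcium channel genes in 14 of 21 (median -0.31), with 0 higher in each. Examples are Kcna6 (-0.40 ± 0.09), Kcnd2 (-0.46 ± 0.12), its partner Dpp6 (-0.45 ± 0.12), the P/Q-type channel Cacna1a (-0.39 ± 0.09), the T-type channel Cacna1i (-0.56 ± 0.13) and the auxiliary subunit Cacna2d3 (-0.39 ± 0.10). Kcna1 had -0.02 ± 0.13 (adjusted p = 0.929). Leaving out Ctrl replicate 7 gave 10 potassium channel genes called, and leaving out Ctrl replicate 3 gave 11.

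Of 40 presynaptic genes 30 fell and 0 rose, with a median of -0.28. Dnm1, the dynamin of vesicle retrieval, had 115 to 185 CPM in Maternal_0.3Cyp (median 137), against 125 to 259 CPM in Ctrl (median 174). Of the Ctrl libraries 5 lay above all exposed ones and 7 inside the exposed range, and the log2 fold change was -0.44 ± 0.11 (adjusted p = 0.00529). The active zone protein Ppfia3 fell (-0.29 ± 0.07) and the vesicle protein Syngr1 (-0.34 ± 0.08), while the fusion protein Snap25 had -0.13 ± 0.07 and did not pass (adjusted p = 0.179). Of 40 postsynaptic and adhesion genes 28 fell and 1 rose (median -0.29). Frmpd4, a partner of PSD-95, had 3.48 to 7.07 CPM in Maternal_0.3Cyp (median 4.48), against 3.44 to 11.7 CPM in Ctrl (median 8.52). Ctrl replicate 5 lay inside the exposed range, replicate 6 below it and the other 10 above it, and the log2 fold change was -0.81 ± 0.17 (adjusted p = 0.00321). The adhesion protein Nlgn3 fell (-0.26 ± 0.06), and the scaffold Dlg1 had 0.02 ± 0.06 (adjusted p = 0.809).

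Of 25 ionotropic glutamate receptor genes 19 fell and 0 rose (median -0.34), and of 26 genes of GABA receptors and GABA handling 18 fell and 0 rose (median -0.32). Grin1, the subunit that all NMDA receptors share, had 46.4 to 71.3 CPM in Maternal_0.3Cyp (median 58.5), against 50.4 to 126 CPM in Ctrl (median 75.1). It fell (-0.52 ± 0.13, adjusted p = 0.00567), and 8 of the 12 Ctrl libraries lay above all exposed libraries. The AMPA receptor subunits Gria1 and Gria3 fell (-0.28 ± 0.08 and -0.35 ± 0.08), and the kainate receptor subunits Grik2 and Grik5 (-0.29 ± 0.07 and -0.14 ± 0.03). On the GABA side, the receptor subunit Gabrb1 (-0.64 ± 0.16), the transporter Slc6a11 (-0.65 ± 0.17), and Kctd16, an auxiliary subunit of GABA-B receptors (-1.01 ± 0.24), fell. Kctd16 was low, at 0.26 to 1.586 CPM in the exposed libraries and 0.514 to 2.675 CPM in Ctrl libraries. Of 48 autism-linked genes 18 fell and 0 rose (median -0.14). They included Foxp1 and Nlgn3 named above, while the chromatin remodeller Chd8 had -0.12 ± 0.08 (adjusted p = 0.292).

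Immediate early genes, which neurons switch on within minutes of activity, fell in 9 of 29 cases and rose in 3 (median -0.20). This makes 41.4% called beside 23.7% of all genes, while the summed level of the list had a median of 1198 CPM in both groups. Egr4 had 0.275 to 1.21 CPM in Maternal_0.3Cyp (median 0.783), against 0.890 to 3.25 CPM in Ctrl (median 1.69). Ctrl replicates 6 and 11 lay within the exposed range, and the log2 fold change was -1.14 ± 0.28 (adjusted p = 0.00517). Egr3 fell (-0.56 ± 0.12), Nr4a1 (-0.52 ± 0.12) and Vgf, a secreted neuropeptide precursor (-0.81 ± 0.19). Fos had -0.45 ± 0.21 and did not pass (adjusted p = 0.108). Of 21 genes of the glucocorticoid and stress axis 7 fell and 1 rose (median -0.18), which makes 38.1% called beside 23.7% of all genes. On the summed level of this list 9 Ctrl libraries lay inside the exposed range and 3 above it. Per1, a clock gene that glucocorticoids induce, had 31.7 to 44.0 CPM in Maternal_0.3Cyp (median 38.5), against 38.5 to 74.5 CPM in Ctrl (median 45.5), and fell (-0.36 ± 0.08, adjusted p = 0.00321), with 7 Ctrl libraries above all exposed ones. Klf9, another glucocorticoid target, fell (-0.49 ± 0.15), the receptor of corticotropin-releasing hormone Crhr1 (-0.43 ± 0.12) and the oxytocin receptor Oxtr (-0.54 ± 0.15). Nr3c1, the glucocorticoid receptor, had -0.12 ± 0.08 (adjusted p = 0.268). The stress axis count of 8 was 5 without any 1 of Ctrl replicates 3, 7 and 8 or exposed replicate 5.

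Of 17 genes of oligodendrocyte precursors 12 fell and 0 rose (median -0.34), and of 20 early astrocyte genes 9 fell and 0 rose (median -0.30). Olig1, a lineage factor, had 34.4 to 54.8 CPM in Maternal_0.3Cyp (median 43.0), against 36.2 to 115 CPM in Ctrl (median 70.9). Ctrl replicates 5, 6, 11 and 12 lay inside the exposed range and the other 8 Ctrl libraries above it, with -0.61 ± 0.16 (adjusted p = 0.00812) as the log2 fold change. Olig2 fell (-0.35 ± 0.10) and Gpr17, a receptor of committed precursors (-0.62 ± 0.18), while Pdgfra, the receptor that defines these precursors, had -0.34 ± 0.14 (adjusted p = 0.0716). Aqp4, the water channel of astrocytes, had 1.48 to 4.18 CPM in Maternal_0.3Cyp (median 2.06), against 1.70 to 7.61 CPM in Ctrl (median 4.40), a log2 fold change of -1.0 ± 0.27 (adjusted p = 0.008). Hepacam, an astrocyte adhesion protein, fell (-0.63 ± 0.20), the proteoglycan Bcan (-0.38 ± 0.10) and the mitochondrial carrier Slc25a18 (-0.95 ± 0.28). The precursor count was 7 without any 1 of Ctrl replicates 3, 7 and 12, and the astrocyte count was 5 without Ctrl replicate 7.

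Cholesterol synthesis genes fell in 14 of 26 cases and rose in 0, with a median of -0.15. Hmgcs1, which makes HMG-CoA, had 416 to 553 CPM in Maternal_0.3Cyp (median 494), against 465 to 750.2 CPM in Ctrl (median 629). All 12 exposed libraries lay below the Ctrl mean, and the log2 fold change was -0.34 ± 0.07 (adjusted p = 0.0033). The last-step enzyme Dhcr7 fell (-0.20 ± 0.04), Lss, which closes the sterol rings (-0.26 ± 0.07), and the sterol sensor Scap (-0.12 ± 0.03). On the summed level 10 Ctrl libraries lay above the highest exposed library and 2 inside the exposed range. The window of Hmgcs1 printed above holds 4 CCAAT boxes, and CCAAT was in 16 of 18 windows of this list (88.9%), against 38.6% of all windows. The demethylase gene Cyp51, counted in the list of xenobiotic metabolism as a cytochrome P450 and known for sterol synthesis, fell (-0.14 ± 0.04). Over the 25 members of the xenobiotic list, Cyp51 included, 1 rose and 5 fell, which makes 24% called beside 23.7% of all genes. The aryl hydrocarbon receptor Ahr fell (-0.42 ± 0.15), Gstm1 (-0.28 ± 0.09), and Gsta4 rose by 0.48 ± 0.17. The xenobiotic count of 6 was 1 without Ctrl replicate 7, 2 without exposed replicate 5, and 3 without Ctrl replicate 3, 8 or 12.

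Ribosomal protein genes rose in 29 of 82 cases and fell in 0, with a median of 0.18. Leaving out 1 of Ctrl replicates 3, 7, 8 and 9 gave 12, 8, 9 and 14 called members, and leaving out 1 of exposed replicates 1, 5 and 6 gave 18, 13 and 16, while the median stayed between 0.16 and 0.19. Rps23 rose by 0.25 ± 0.07, and Rpl3 had 0.09 ± 0.05 (adjusted p = 0.146). Rps27l, a p53-induced paralogue, rose by 0.44 ± 0.10. Nuclear genes of the respiratory chain rose in 10 of 77 cases and fell in 0 (median 0.13), a share near that of all genes called higher, and the count became 2 or 17 when exposed replicate 5 or 11 was left out, and 6 or 18 for Ctrl replicate 7 or 1. Ribosomal protein genes have many near-identical copies in the genome, whose reads the counting may have split. Mitochondrially encoded mRNAs gave 0 calls of 13 (edgeR), with a median of 0.01. Oxidative stress genes rose in 4 of 26 cases and fell in 0. This makes 15.4% of the list, where 10.9% of all genes were higher and 23.7% were called. The risers included the peroxiredoxins Prdx4 (0.30 ± 0.09), Prdx1 (0.23 ± 0.07) and Prdx2 (0.19 ± 0.07). Of 30 heat shock and unfolded protein genes 3 rose and 2 fell, which makes 16.7% called beside the 23.7% of all genes. The fallers were the inducible chaperones Hspa1a (-0.57 ± 0.22) and Hspa1b (-0.61 ± 0.15), near-identical copies whose reads may be split between them, and the mitochondrial chaperones Hspd1 and Hspe1 rose by 0.12 ± 0.05 and 0.21 ± 0.07. With 1 library left out, the oxidative stress count was at its lowest at 2, without Ctrl replicate 3 or 12 or exposed replicate 6, and the heat shock count at 1, without Ctrl replicate 7.

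Of 28 interferon response genes 1 rose and 2 fell, Rnf213 (-0.73 ± 0.23) and Rsad2 (-1.16 ± 0.44). This is 10.7% of the list, where 23.7% of all genes were called, and the count was 1 without Ctrl replicate 7. Rsad2 was low, at 0.105 to 0.734 CPM in the exposed libraries and 0.105 to 1.81 CPM in Ctrl libraries. Of 39 imprinted genes 4 rose and 3 fell, which makes 17.9% called, where 23.7% of all genes were. Mest, a paternally expressed gene of the early embryo, had 169 to 222 CPM in Maternal_0.3Cyp (median 189), against 129 to 191 CPM in Ctrl (median 139), and rose by 0.35 ± 0.08 (adjusted p = 0.00401), and Kcnk9, a maternally expressed potassium channel, fell (-0.81 ± 0.22). Igf2 had 0.39 ± 0.25 (adjusted p = 0.238). Of 18 DNA methylation genes 3 rose and 1 fell, which makes 22.2% called beside 23.7% of all genes. The list had 9 positive and 9 negative values (median 0.007). The 3 risers were Mbd3 (0.18 ± 0.06), Gadd45g (0.40 ± 0.14) and the glycosylase Tdg (0.14 ± 0.05). The imprinted count of 7 was 3 without any 1 of Ctrl replicates 3, 7 and 8 or exposed replicates 1, 2 and 5, and 4 without Ctrl replicate 10 or 12 or exposed replicate 7. The DNA methylation count of 4 was 1 without Ctrl replicate 3 or exposed replicate 5.

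Markers of other cell types are read against the 10.9% of all genes called higher and the 12.8% called lower. Of 17 diencephalon genes 2 fell and 0 rose (median -0.62). Without Ctrl replicate 3 the count was 0 and the median -0.06, and without Ctrl replicate 6 the count was 4. Foxb1, a hypothalamic factor, had -2.35 ± 0.58 (adjusted p = 0.00567), with 0.105 to 0.624 CPM in the exposed libraries, against 7.61 CPM in Ctrl replicate 3, 6.35 in Ctrl replicate 10 and at most 0.72 in the other Ctrl libraries, and without replicate 3 it had -1.30 (adjusted p = 0.0777). The gene with the most negative value, picked out after its values were seen, was Avp, the vasopressin precursor of the hypothalamus, at -4.33 ± 0.96 (adjusted p = 0.00401). Avp had 0 to 0.803 CPM in the 12 exposed libraries, against 10.2, 6.38 and 7.91 CPM in Ctrl replicates 3, 7 and 10 and at most 0.775 CPM in the other 9 Ctrl libraries. The part of tissue from outside the dorsal forebrain in this difference was not tested. Of 15 choroid plexus genes 1 fell and 0 rose, while the median was 0.28, and its main product Ttr had 0.34 ± 0.38 (adjusted p = 0.523). Of 20 microglia and macrophage genes 5 rose (25% of the list) and 0 fell (median 0.20), Lyz2 by 0.44 ± 0.16, C1qb by 0.32 ± 0.11, Ctss by 0.33 ± 0.11 and Laptm5 by 0.25 ± 0.09 among them. This count was 0 without exposed replicate 2 or 7, 1 without Ctrl replicate 3 or 12, and 2 without Ctrl replicate 5 or exposed replicate 5. Of 10 Cajal-Retzius genes 2 rose and 0 fell, with 3 values positive and 7 negative (median -0.08). The risers were Trp73 (0.30 ± 0.12) and Cxcr4 (0.22 ± 0.07), and Reln had -0.08 ± 0.17 (adjusted p = 0.745). Of 17 pericyte genes 2 fell, and of 21 meningeal genes 1 rose, Crabp2 (0.67 ± 0.25), with a meningeal median of 1.01 in batch 1 and 0.11 in batch 2. The counts of 1 or 2 in the choroid plexus, Cajal-Retzius, pericyte and meningeal lists each changed when 1 of several libraries was left out.

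Of 14 erythroid genes 3 rose and 0 fell, 21.4% of the list, where 10.9% of all genes were higher and 23.7% were called. Klf1 (1.18 ± 0.35) and Alas2 (0.25 ± 0.09) were among them, and the adult globin Hba-a1 had 0.10 ± 0.10 (adjusted p = 0.491). Klf1 was low, at 0.104 to 1.125 CPM in the exposed libraries and 0.052 to 0.376 CPM in Ctrl libraries. The embryonic globins, which adult globins replace as gestation goes on, were near the limit of detection, with 8 to 28 counts per library in Maternal_0.3Cyp and 0 to 26 in Ctrl. The log2 ratio of embryonic to adult globin counts was -10.9 ± 0.62 in Maternal_0.3Cyp and -12.6 ± 1.65 in Ctrl (SD, n = 12 each), a difference of 1.67 (2-sided permutation test within batches, p = 0.0024). In batch 2 the difference was 1.53 (p = 0.012, permutation test) and in batch 1 it was 1.91 (p = 0.13, permutation test). With a pseudocount of 5 in place of 0.5 the difference was 0.855 (p = 0.00736, permutation test). The ratio was chosen because earlier results of these data had shown it to move with the groups. Its p-values are therefore not an independent test. Among Ctrl libraries, replicates 6, 11 and 5 held the most embryonic globin counts, 26, 23 and 16. With this ratio as a covariate 170 genes were called (1.19%), 168 of them among the 3404, and all 3404 kept their sign, with a median absolute log2 fold change of 0.18. The mitosis list then had 6 members called of 67 and a median of 0.22.

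**Figure D3:**
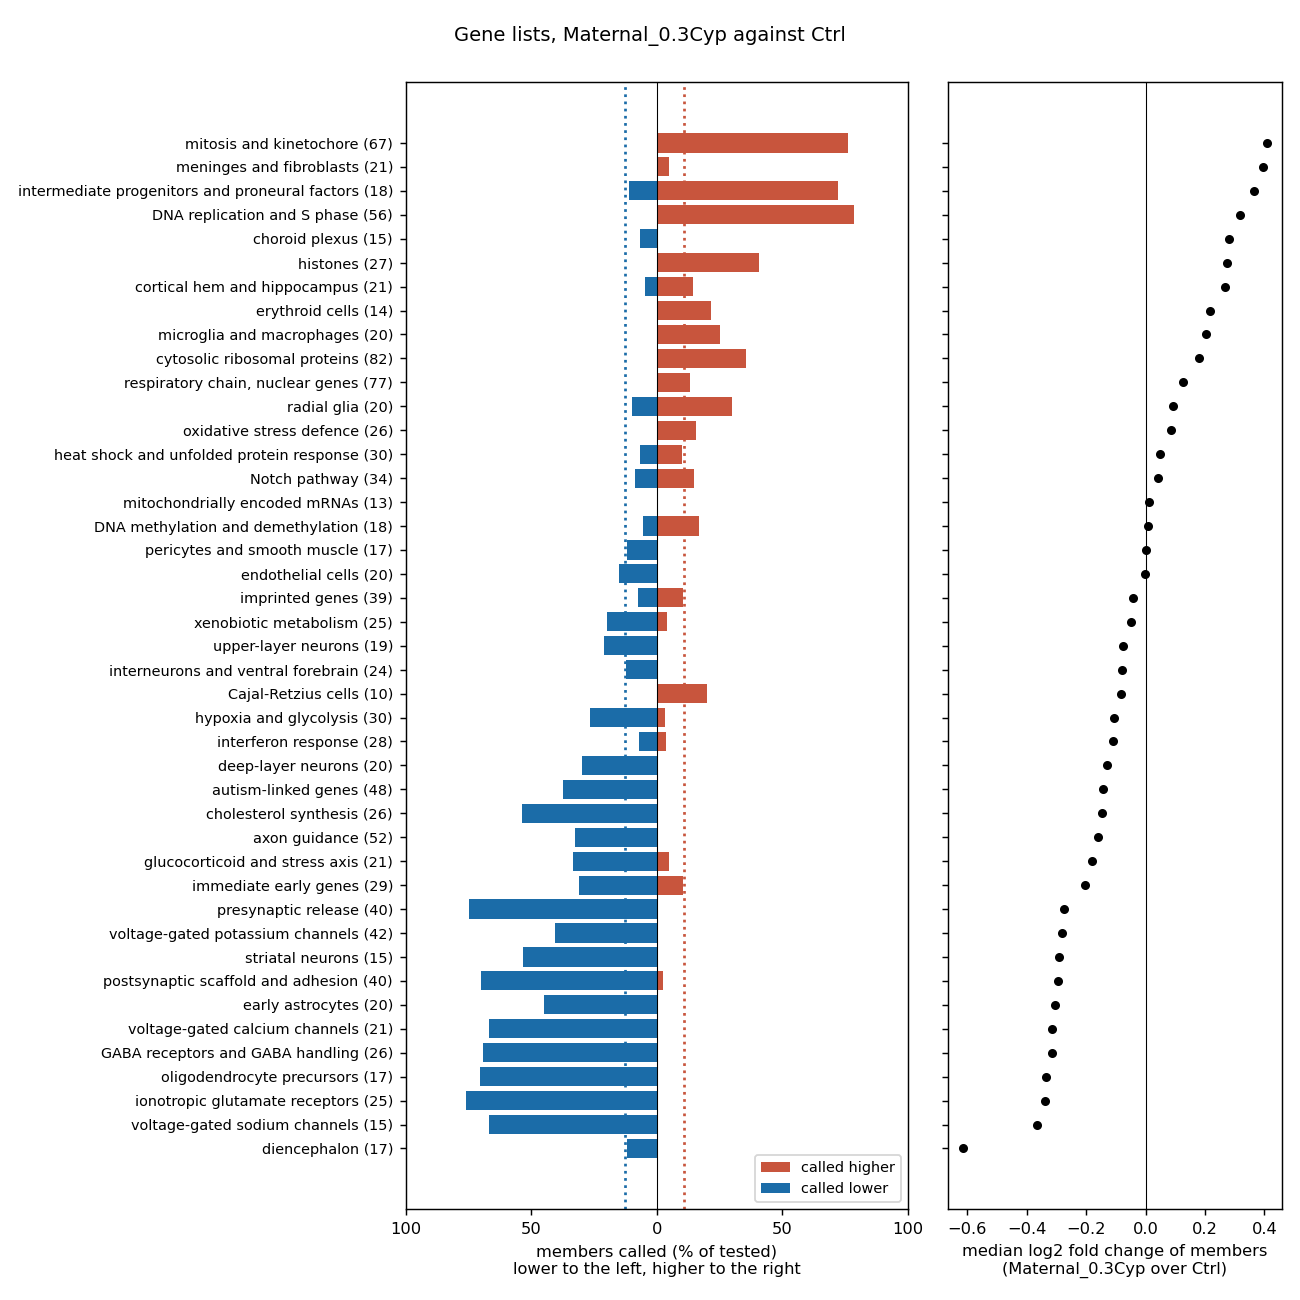
Gene lists with at least 10 tested members, ordered by median log2 fold change, with the number of tested members in brackets; bars give the percent of members called higher (right) and lower (left), dotted lines give the percent of all 14339 genes called in each direction (10.9% and 12.8%), and points give the median log2 fold change of Maternal_0.3Cyp over Ctrl. Mitosis, replication and intermediate progenitors stand near the top with over 70% of members higher, and sodium channels, glutamate receptors and synaptic lists stand near the bottom.

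The batches were first taken apart. Within batch 1 (4 against 6 libraries) 0 genes were called by edgeR, with 1207 at an unadjusted p under 0.05, 0 called by DESeq2 and 23 by limma. Within batch 2 (8 against 6) 3025 genes were called (21.1%), 1656 higher (11.5%) and 1369 lower (9.55%). Of these 3025, 2774 had the same sign in batch 1 (91.7%), against 74.5% of all genes, and the batches share no Ctrl library. Their median absolute log2 fold change was 0.15 in batch 1 and 0.31 in batch 2, where they were selected, which favours larger values there. Across 13189 genes with at least 1 CPM, the fold changes in the batches had Pearson's r = 0.59 and Spearman's rho = 0.67, a description over genes, which are not independent. The mitosis median was 0.27 in batch 1 and 0.55 in batch 2, with 11 members higher and 0 lower at an unadjusted p under 0.05 in batch 1. The presynaptic median was -0.22 in batch 1 and -0.33 in batch 2. Ctrl replicates 5 and 6, which had the highest mitosis sums, are among the 6 Ctrl libraries of batch 1, and their part in the smaller effect there was not tested.

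**Figure D4:**
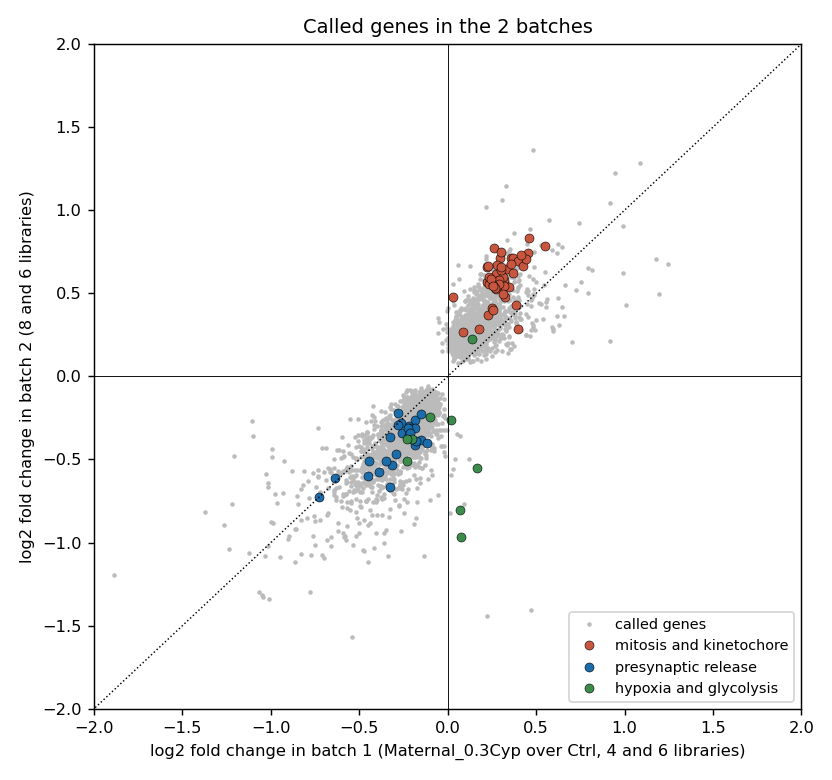
Log2 fold change of Maternal_0.3Cyp over Ctrl in batch 1 (x axis, 4 and 6 libraries) and in batch 2 (y axis, 8 and 6 libraries) for 3399 of the 3404 called genes (5 lie outside the axes); the dotted line marks equal values. Mitosis genes lie in the upper right and presynaptic genes in the lower left, mostly with larger values in batch 2, and several hypoxia genes lie near 0 in batch 1 and below 0 in batch 2.

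Hypoxia and vessel growth genes were among those with the lowest p for a difference between batches. This test of the difference between batches called 0 genes by edgeR (679 at an unadjusted p under 0.05; 7 by DESeq2 and 23 by limma), with a smallest adjusted p of 0.0609, shared by Vegfa, Ctdp1, P4ha1 and Depp1. Vegfa, the main vascular growth factor and a target of hypoxia-inducible factors, had 23.9 to 37.2 CPM in Maternal_0.3Cyp, against 37.4 to 82.1 CPM in Ctrl in batch 2. In batch 1 it had 30.4 to 37.1 CPM in Maternal_0.3Cyp, against 24.8 to 38.7 CPM in Ctrl. The highest Vegfa values of batch 2 were those of Ctrl replicates 11 and 12, 82.1 and 72.9 CPM, against 37.4 to 53.5 CPM in Ctrl replicates 7 to 10. The groups did not overlap in batch 2, as was so for 8.29% of genes there, and did in batch 1, where 1.88% of genes had groups apart, and the effect differed by -1.04 ± 0.21 between the batches (batch 2 minus batch 1). Depp1, which low oxygen and fasting induce, differed by -1.88 ± 0.40, the effect on the collagen-modifying enzyme P4ha1 differed by -0.62 ± 0.13, and that on Adm, the vasodilator adrenomedullin, differed by -1.61 ± 0.36 (adjusted p = 0.0803). Flt1, a receptor of Vegfa, had 17.0 to 26.8 CPM in Maternal_0.3Cyp, against 25.7 to 50.1 CPM in Ctrl (batch 2), and 18.6 to 27.3 CPM in Maternal_0.3Cyp, against 18.4 to 26.7 CPM in Ctrl (batch 1). Ctrl replicates 11 and 12 also held the highest batch 2 values of Depp1, P4ha1, Adm and Flt1. Over the hypoxia and glycolysis list 8 of 30 members fell and 1 rose, which makes 30% called beside 23.7% of all genes. Of this list 5 were called without Ctrl replicate 11 or 12 and 14 without Ctrl replicate 2. The glucose transporter Slc2a3 fell (-0.39 ± 0.08) and the hexokinase Hk1 (-0.31 ± 0.07). Of 20 endothelial genes 3 fell and 0 rose, 15% of the list, where 12.8% of all genes were lower. The fallers were Flt1 (-0.48 ± 0.12), the thyroid hormone transporter Slco1c1 (-0.41 ± 0.14) and the efflux pump Abcb1a (-0.33 ± 0.13). Cldn5, the tight junction protein that defines these cells, had 0.13 ± 0.11 (adjusted p = 0.388). The collagen gene Col1a1 had 11.3 to 101 CPM in Maternal_0.3Cyp, against 10.5 to 174 CPM in Ctrl (batch 2), and 6.82 to 85.5 CPM in Maternal_0.3Cyp, against 5.27 to 37.7 CPM in Ctrl (batch 1), with log2 fold changes of -1.14 in batch 2 and 1.61 in batch 1.

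**Figure D5:**
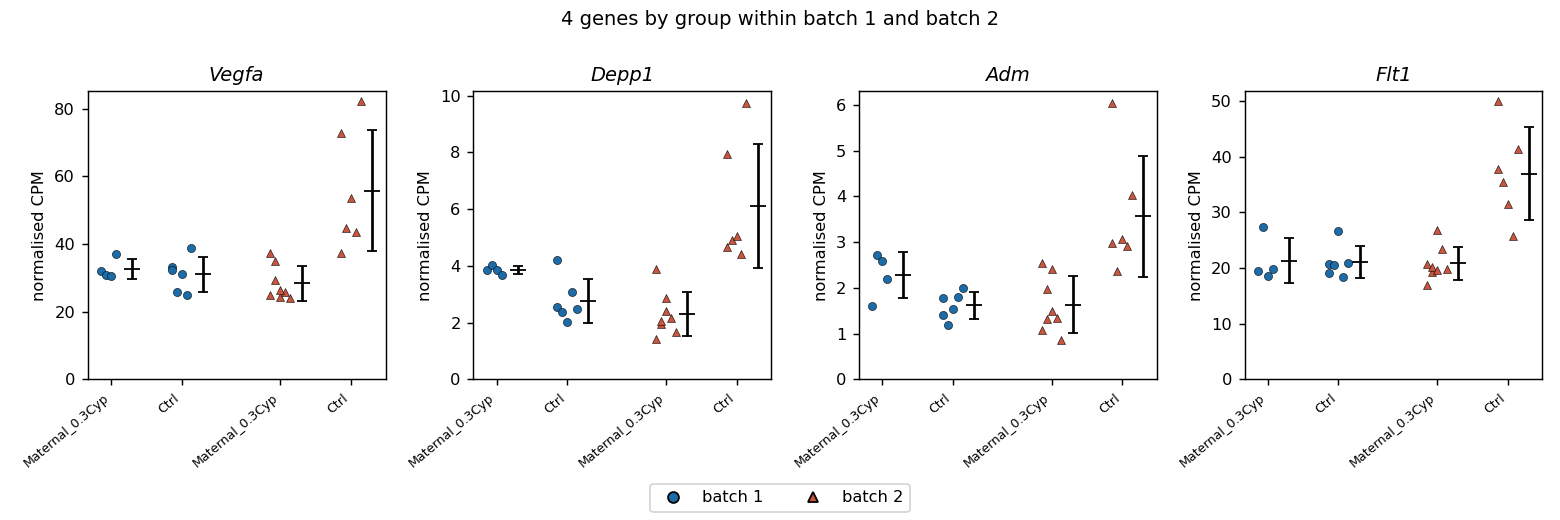
Normalised CPM of Vegfa, Depp1, Adm and Flt1 within batch 1 (circles) and batch 2 (triangles), Maternal_0.3Cyp left of Ctrl in each pair; bars are means with SD (n = 4 and 6 in batch 1, 8 and 6 in batch 2). The Ctrl libraries of batch 2 have the highest median of the 4 sets in each gene, for Vegfa within 37.4 to 82.1 CPM.

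No difference between the sexes passed. The test of sex by exposure called 0 genes by edgeR, DESeq2 and limma (305 at an unadjusted p under 0.05 by edgeR). In males 43 genes were called (0.3%), and in females 0 were called by edgeR, with 2352 at an unadjusted p under 0.05, 2 by DESeq2 and 459 by limma. Across 13189 genes the fold changes in males and in females had Pearson's r = 0.61 and Spearman's rho = 0.69, as a description over genes. The mitosis median was 0.46 in males and 0.36 in females, and the presynaptic median -0.29 in males and -0.28 in females. Cks2 had 0.76 ± 0.18 in males and 0.48 ± 0.20 in females, and Frmpd4 -0.78 ± 0.24 and -0.86 ± 0.26 in the same order. Of the genes with the lowest interaction p, Sorbs3, an adhesion adaptor, had 0.43 ± 0.10 in males and -0.16 ± 0.11 in females, an interaction that did not pass (adjusted p = 1.0).

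Set directly against the other exposed groups, Maternal_0.3Cyp differed in few genes. The level of the Ctrl group does not enter these differences, though Ctrl libraries share in the estimates of spread, batch and sex. Against Maternal_10Cyp (n = 8), the higher dose to the mother, 0 genes were called by edgeR (1291 at an unadjusted p under 0.05; 6 by DESeq2 and 421 by limma). The median difference of mitosis genes was -0.07 and that of presynaptic genes 0.07 (log2, Maternal_0.3Cyp minus Maternal_10Cyp). Cks2 differed by -0.24 ± 0.14 and Neurod4 by 0.10 ± 0.16. The gene nearest to a call was Dock8, a guanine exchange factor of immune cells, at 0.86 ± 0.17 (adjusted p = 0.0633). Against Paternal_0.3Cyp (n = 12) 1 gene was called, Irx2, a diencephalon factor, with a log2 difference of -3.57 ± 0.71 (adjusted p = 0.0459) at a mean of 0.243 CPM in Maternal_0.3Cyp, with 582 genes at an unadjusted p under 0.05, 5 called by DESeq2 and 0 by limma. Irx2 is named for this call, after its values were seen, and the count was 0 when only these groups were fitted. Against Both_0.3Cyp (n = 12) 0 genes were called by edgeR, DESeq2 and limma, with 276 at an unadjusted p under 0.05. The median differences of mitosis genes were -0.02 against Paternal_0.3Cyp and 0.0041 against Both_0.3Cyp. Cks2 differed by 0.00094 ± 0.13 from Paternal_0.3Cyp and by 0.03 ± 0.13 from Both_0.3Cyp. A missed threshold does not show that the groups are alike.

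Spread was compared next. The median coefficient of variation over 13189 genes was 9.74% among the 12 Maternal_0.3Cyp libraries and 11.8% among the 12 Ctrl libraries. Within batch 1 it was 7.84% among 4 exposed libraries and 11.4% among 6 Ctrl libraries, and within batch 2 it was 9.89% among 8 exposed libraries and 8.89% among 6 Ctrl libraries. The wider Ctrl spread was thus seen in batch 1 and not in batch 2. Only 1 gene of 14339 (0.00697%) had groups that did not overlap over all 24 libraries. This gene, picked out by that criterion, was Elmod1, whose product acts on Arl GTPases, with 102 to 114 CPM in Maternal_0.3Cyp (median 110.0) and 116 to 137 CPM in Ctrl (median 124). Its log2 fold change was -0.19 ± 0.07 (adjusted p = 0.0329), and -0.18 in batch 1 and -0.21 in batch 2. Elmod1 did not pass within either batch (adjusted p = 0.583 in batch 1 and 0.084 in batch 2). Without Ctrl replicate 12 it did not pass either (adjusted p = 0.0581).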

How the data were processed

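RNA of 76 dorsal forebrains was sequenced. Per the submitters' processing notes, the authors used Trim Galore 0.5.0 and Salmon 1.10.1 with mm10; the roles of these tools are not stated there. The deposited table holds expected counts, estimated per gene and given as whole numbers, for 14823 genes; how the estimates became whole was not given in the sources used here. Gene names came from GENCODE M21 (GRCm38), and 13 tested identifiers had no name.

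Genes were filtered by filterByExpr (14339 kept) and scaled by TMM. All 76 libraries entered a robust quasi-likelihood fit in edgeR 4.0.16 with group, batch and sex as terms, so that the 7 groups shared 1 estimate of the spread. A call is a Benjamini-Hochberg adjusted p under 0.05 over all genes tested, and log2 fold changes are given with their standard error. Every adjusted p in the text is from this edgeR test unless another tool is named. Batches and sexes were tested by cell means in the same kind of fit. DESeq2 1.42.0, limma 3.58.1 and sva 3.50.0 served as alternatives. CPM are normalised by TMM library sizes. The globin ratio was tested by permutation within batches, 2-sided, with a pseudocount of 0.5 counts and 100000 resamples.

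Counts were simulated for 14339 genes, with means and spread from a fit of batch and sex to all 76 libraries. Of the genes changed 1.25-fold 35 of 50 were recovered, and of those changed 1.5-fold 46 of 50, while 9 of 14139 unchanged genes were called. Libraries were drawn independently, with no litter effect and no shared hidden variation. The simulation therefore cannot show how many calls in the real libraries are false. Replicate numbers are shared between the groups but no label ties them to a litter. No 2 libraries agreed within sampling noise. The named genes are the 15 called genes of lowest p in each direction with a mean of at least 1 CPM, the same sign in both batches and a full gene name, and, for each list, its first member and up to 4 further members of lowest p; the genes of lowest p of the other comparisons were added, and the groups, lists and genes were chosen with earlier results of these data known. Some genes that the rule names are not reported here.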

Additional observations from a re-analysis of the deposited data

How the results depend on the processing

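Scaling by DESeq2 size factors (3360 genes called), no filter (3298), no sex term (3435), DESeq2 (3577) and only the groups compared (4638) left the count of 3404 within 1.5 times. Without a batch term 985 genes were higher, and with limma 2480 were higher. Batch 2 alone gave 1164 lower genes, and males alone gave 45 genes, 14 higher and 31 lower. Batch 1 alone, females alone and 2 surrogate variables gave 0 genes in either direction, and the cause was not tested. With the globin ratio as a covariate 170 genes were called, 81 higher and 89 lower, again with the cause not tested. With 2 surrogate variables, 2985 of the 3404 genes had the same sign, at a median absolute log2 fold change of 0.06. Leaving out 1 library gave 2176 to 4105 genes, 929 to 1958 higher and 1247 to 2147 lower. The lowest were without Ctrl replicate 7, and without exposed replicate 5 there were 979 higher genes. The difference between batches gave 2 genes with the globin ratio, 7 with DESeq2 and 23 with limma. Against Maternal_10Cyp there was 1 gene with the globin ratio, 6 with DESeq2 and 421 with limma. Against Paternal_0.3Cyp there were 5 with no filter or DESeq2, 3 with no sex term or the globin ratio, and 0 with limma or only the groups compared. The globin ratio difference was 1.91 in batch 1 alone. With 2 surrogate variables the sign of 8 named genes turned: Hepacam 0.060, Gpr17 0.064, Scn2a 0.056, Gria1 0.034, Slc6a11 0.039, Tdg -0.0036, Hspa1a 0.11 and Ppp1r9a 0.037. In batch 1 alone that of Flt1 (0.022), Vegfa (0.084), Slc16a3 (0.083), P4ha1 (0.13) and Depp1 (0.48) turned, and the causes were not tested.

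Replicate numbers did not pair the libraries: the correlation of same-numbered libraries' deviations ran from -0.23 to 0.27 (median -0.09), 3 of 12 pairs were over 0.1, and 0 libraries correlated best with their own number. With the replicate block 3688 genes were called (1659 higher, 2029 lower), 2 for the difference between batches and 0 against Paternal_0.3Cyp.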
